A study of Mus musculus with 6 samples.

Results

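The genes described here are 10 unfolded protein response genes, *Hspa5*, *Hsp90b1*, *Dnajb9*, *Hyou1*, *Sdf2l1*, *Pdia4*, *Creld2*, *Herpud1*, *Xbp1* and *Ern2*, measured in the colon of mice prone (OP) or resistant (OR) to obesity. They were taken by gene symbol from the deposited table, in which 10 of 10 were found among 17778 genes, and all 10 were among the 13520 genes with enough signal to be tested. None of the 10 differed between 3 OP and 3 OR mice by more than the spread between mice. All 6 were wild-type C57BL/6J mice fed a high-fat diet with 60% fat for 16 weeks, until 21 weeks of age. The study used male mice. In the study, 42 mice received this diet, the 10 with the highest weight gain were defined as OP and the 10 with the lowest as OR. The labels give 3 numbered colon samples per group without saying whether each is 1 animal. They are called mice here, and the p-values measure the spread between these samples. Colon from mice on a normal diet was not analysed here, so the values give no level without the high-fat diet.

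The unfolded protein response is the program by which a cell adjusts the endoplasmic reticulum (ER) to its load of newly made secreted and membrane proteins. The ER membrane sensors IRE1, PERK and ATF6 detect unfolded proteins, and the transcription factors that act after them, XBP1, ATF4 and cleaved ATF6, raise the expression of chaperones, disulfide enzymes and factors that remove misfolded proteins. In the colon, goblet cells secrete large amounts of mucin and depend on this program, and their IRE1 paralog IRE1 beta, the product of *Ern2*, is largely restricted to the epithelium of mucosal tissues.

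ATF6 and XBP1 are known to act on targets through short promoter motifs, so the promoters of the genes were searched for these motifs to show which members carry them. The motifs were the ER stress response element (ERSE), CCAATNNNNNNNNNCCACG, its second form (ERSE-II), ATTGGNCCACG, and the unfolded protein response element (UPRE), TGACGTG, each on both strands. ERSE and ERSE-II share the letters CCACG. In RefSeq promoters of build GRCm38.p6, which run from 250 bases before to 50 bases after each gene start, 8 of the 10 genes had a window. *Hyou1* and *Ern2* had none. *Hspa5*, *Hsp90b1* and *Creld2* held an ERSE and *Herpud1* held an ERSE-II, 4 of 8 in all. Of all 32851 windows, 39 (0.119%) held an ERSE, 12 (0.0365%) an ERSE-II and 661 (2.01%) a UPRE. The members with an ERSE, *Hspa5*, *Hsp90b1* and *Creld2*, encode ER lumen proteins. The match of letters is a description and does not show that a factor binds there.

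The 250 bases before the start of *Hspa5* (chr2:34771840-34772089, plus strand) and *Hsp90b1* (chr10:86705445-86705694, minus strand) are given 5′ to 3′ because these are the most abundant members and both hold an ERSE. Capitals mark the motifs. The ERSE of *Hspa5* begins 65 bases and its UPRE 157 bases before the gene start, and *Hsp90b1* holds 1 ERSE on its own strand 212 bases before the start and another on the opposite strand from 107 bases before the start.
Hspa5: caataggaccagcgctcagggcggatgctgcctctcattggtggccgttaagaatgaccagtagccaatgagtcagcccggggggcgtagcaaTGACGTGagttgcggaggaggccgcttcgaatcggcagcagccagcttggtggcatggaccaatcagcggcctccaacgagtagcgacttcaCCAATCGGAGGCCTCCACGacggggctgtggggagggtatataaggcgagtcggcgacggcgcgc
Hsp90b1: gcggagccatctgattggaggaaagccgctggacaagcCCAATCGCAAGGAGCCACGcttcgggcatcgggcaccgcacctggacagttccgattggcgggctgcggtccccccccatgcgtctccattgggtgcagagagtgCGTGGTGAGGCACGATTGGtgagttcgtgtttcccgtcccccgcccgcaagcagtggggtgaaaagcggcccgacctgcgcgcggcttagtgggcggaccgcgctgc

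The motifs of *Creld2* (chr15:88819516-88819542, plus strand) and *Herpud1* (chr8:94386373-94386391, plus strand) are given with 4 bases on each side, because *Creld2* holds its ERSE on the opposite strand and *Herpud1* holds the second form. They begin 126 and 52 bases before the gene starts.
Creld2: ttctCGTGGCGAGCCTCAATTGGtcca
Herpud1: gctgATTGGGCCACGttgg

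Expression was given as FPKM, the number of fragments per kilobase of transcript and scaled to the mapped fragments of the library, so values can be compared between genes as levels per length. FPKM carries no read totals, and the depth of each mouse and its counting error are unknown. The FPKM of all genes summed to between 585350 and 600028 per mouse. OP mouse 1 stood apart from the other 5. Its 10 most abundant genes took 9.88% of the total, against 6.48% to 8.77% in the others, its median-of-ratios scaling factor was 0.802 against 0.983 to 1.11, and it had the lowest sample weight, 0.332 against 0.640 to 2.21. FPKM therefore set most genes of this mouse lower than median-of-ratios scaling did, and the counts for members and pathway lists are given on both scales.

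BiP and GRP94, the main chaperones of the ER lumen, were encoded by the 2 most abundant members, and the groups overlapped for these and for the partners of BiP. *Hspa5*, which encodes the HSP70-type chaperone BiP that binds unfolded chains and holds the sensors inactive, had FPKM values of 161, 309 and 147 (OP) against 188, 243 and 312 (OR), given here and below for mice 1, 2 and 3 of each group. The highest OP mouse was level with the highest OR mouse, and the other OP mice were below all 3 OR mice. *Hsp90b1*, which encodes the HSP90-type chaperone GRP94, had 171, 246 and 171 (OP) against 176, 237 and 209 (OR). The groups overlapped, with OP mouse 2 the highest of the 6. *Hyou1* encodes GRP170, which helps BiP to exchange its nucleotide, and had 21.2, 43.0 and 26.8 (OP) against 27.1, 31.8 and 39.0 (OR). OP mice were here both the lowest and the highest. *Dnajb9* encodes ERdj4, a J-domain partner of BiP, and had 49.98, 33.2 and 28.8 (OP) against 26.8, 36.2 and 39.4 (OR). It was the only member with its highest value in OP mouse 1.

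In the members that act in disulfide formation, folding and degradation the groups overlapped as well. *Pdia4*, which encodes the disulfide isomerase ERp72, had FPKM values of 42.7, 65 and 48.8 (OP) against 46.8, 63.2 and 62.5 (OR). *Creld2*, which encodes a stress-inducible ER protein with disulfide isomerase activity, had 27.7, 39.5 and 22.6 (OP) against 24.3, 31.0 and 38.0 (OR). In both genes OP mouse 2 was the highest of the 6, and an OP mouse was the lowest. *Sdf2l1*, which encodes a partner of BiP and its J-domain proteins, had 22.3, 35.3 and 21.4 (OP) against 21.6, 33.3 and 29.3 (OR). Its lowest values came from different groups, OP mouse 3 and OR mouse 1. *Herpud1*, which encodes a membrane protein of ER-associated degradation, had 58.9, 87.3 and 57.5 (OP) against 58.1, 53.2 and 76.7 (OR). It had its lowest value in OR mouse 2.

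The signalling members were *Xbp1* and *Ern2*. *Xbp1*, the transcription factor whose messenger is spliced by IRE1, had FPKM values of 59.4, 96.5 and 68.2 (OP) against 78.3, 78.7 and 118 (OR). OP mouse 1 was the lowest and OR mouse 3 the highest. The table gives 1 value per gene symbol, so the spliced and unspliced forms of *Xbp1* could not be separated. *Ern2* had 2.10, 27.8 and 13.7 (OP) against 11.1, 11.6 and 29.0 (OR). Its range over the 6 mice was 13.8-fold, and OP mouse 1 was far below the other 5. Over the other 9 members the highest value was between 1.44 times (*Hsp90b1*) and 2.12 times (*Hspa5*) the lowest.

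**Figure D1:**
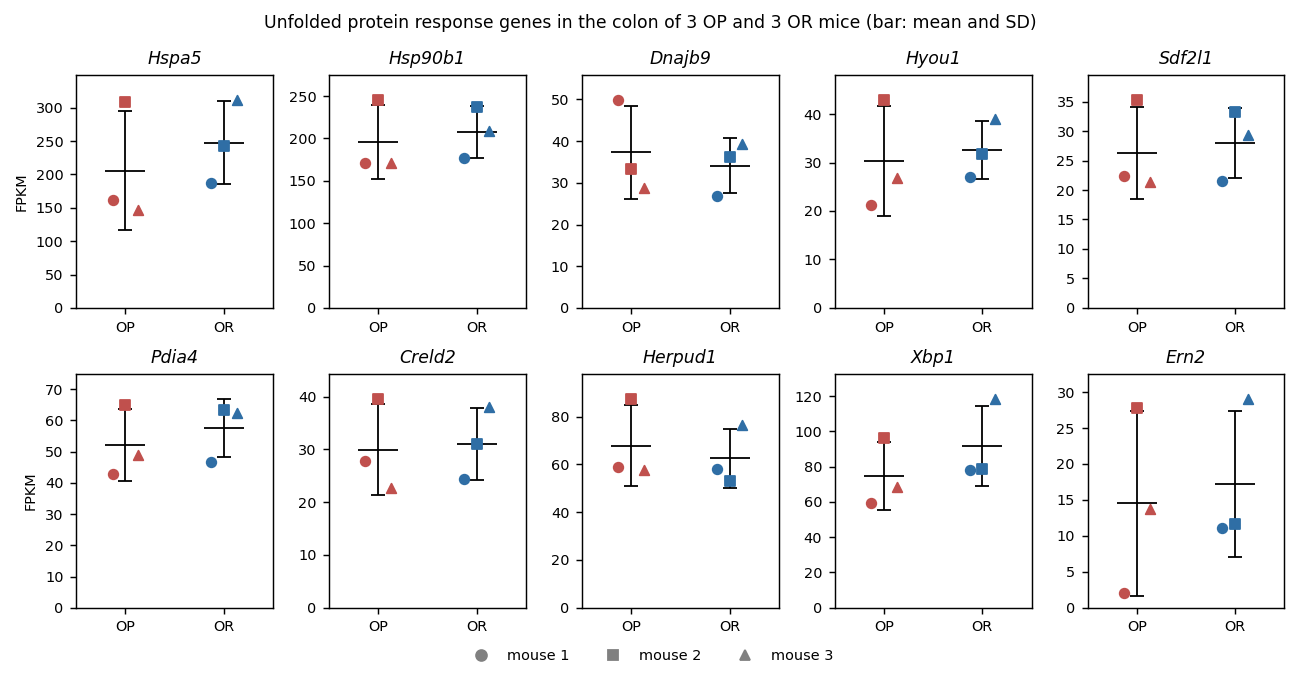
FPKM (vertical axes, each from 0) of the 10 unfolded protein response genes in 3 OP mice (red) and 3 OR mice (blue), with the mean and SD of each group in black. In each of the 10 genes the ranges of the groups overlap, OP mouse 2 (red square) is the highest of the 6 in 6 genes, and *Ern2* in OP mouse 1 (red circle) is at 2.10.

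Ordered by the mean over the 6 mice, the levels per length were 227 ± 72.7 for *Hspa5*, 202 ± 34.0 for *Hsp90b1*, 83.2 ± 21.2 for *Xbp1*, 65.3 ± 13.5 for *Herpud1*, 54.9 ± 9.79 for *Pdia4*, 35.7 ± 8.38 for *Dnajb9*, 31.5 ± 8.21 for *Hyou1*, 30.5 ± 6.99 for *Creld2*, 27.2 ± 6.27 for *Sdf2l1* and 15.9 ± 10.5 for *Ern2* (FPKM, SD over 6 mice of both groups). The order held in 6 of 6 mice for *Hsp90b1* above *Xbp1*, *Xbp1* above *Herpud1*, and *Sdf2l1* above *Ern2*. It held in 5 mice for *Herpud1* above *Pdia4*, *Pdia4* above *Dnajb9*, *Hyou1* above *Creld2* and *Creld2* above *Sdf2l1*. The neighbours *Hspa5* and *Hsp90b1*, and *Dnajb9* and *Hyou1*, kept their order in 4 of 6 mice, and their levels differed by less than the spread between mice. The ratio of *Hspa5* to *Hsp90b1* within a mouse, which no scaling changes, was 0.944, 1.26 and 0.862 (OP) against 1.06, 1.03 and 1.49 (OR).

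The comparison of OP with OR mice asks whether the colon of mice that gained more weight on the same diet had another level of ER stress genes. Differences were tested with limma-trend on log2(FPKM + 1), with p-values adjusted over all 13520 genes by the Benjamini-Hochberg method. The thresholds of the study were a ratio of OP to OR of 1.2 or more, or of 0.83 or less, with an adjusted p below 0.2. At these, limma-trend called 0 of the 10 members and 0.0222% of all genes tested. The study ran DESeq2 at the same thresholds and reported more genes called. At an unadjusted limma-trend p below 0.05, 0 of the 10 were lower or higher in OP mice, where 4.03% of all genes were (3.53% lower and 0.503% higher). The values of the groups were without overlap in 0 of the 10 members and in 8.44% of all genes, 6.81% with OP below OR and 1.63% with OP above OR. Adjusted p-values of the members lay between 0.945 and 0.974. Two-sided exact permutation tests of the mean FPKM gave p from 0.4 (*Xbp1*) to 0.9, where 3 mice against 3 cannot go below 0.1.

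The sizes that the spread leaves possible are given by the 95% intervals of the same fit, on the scale of FPKM + 1. *Hspa5* had group means of 206 ± 89.5 (OP) against 248 ± 62.4 (OR) FPKM (SD, n = 3 each), with an OP to OR ratio of 0.803 and an interval from 0.485 to 1.33. *Xbp1* had 74.7 ± 19.4 and 91.7 ± 23.0, a ratio of 0.815 and an interval from 0.558 to 1.19. These were the members with the lowest ratios after *Ern2*, and both intervals included 1. *Hsp90b1* (196 ± 43.3 and 208 ± 30.3) had a ratio of 0.937 from 0.688 to 1.27, and *Pdia4* (52.2 ± 11.5 and 57.5 ± 9.26) a ratio of 0.903 from 0.657 to 1.24. On the log scale their intervals were the narrowest of the 10, together with that of *Herpud1* (67.9 ± 16.8 and 62.6 ± 12.4), which had a ratio of 1.08 from 0.764 to 1.52.

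The other members had intervals that also included 1. *Dnajb9* had group means of 37.3 ± 11.2 (OP) against 34.1 ± 6.56 (OR) FPKM, a ratio of 1.08 and an interval from 0.732 to 1.58. *Hyou1* had 30.3 ± 11.3 and 32.6 ± 5.99, a ratio of 0.903 and an interval from 0.586 to 1.39. *Sdf2l1* had 26.4 ± 7.80 and 28.02 ± 5.95, a ratio of 0.933 and an interval from 0.631 to 1.38. *Creld2* was close to 1, with 29.9 ± 8.64 and 31.1 ± 6.82, a ratio of 0.955 and an interval from 0.645 to 1.41. *Ern2* had 14.5 ± 12.9 and 17.2 ± 10.2, a ratio of 0.660 and an interval from 0.186 to 2.34, the widest of the 10.

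The direction of the small differences depended on the scale and on single mice. On the FPKM scale 8 of the 10 members had a lower fitted mean in OP mice (median log2 fold change -0.12), but the median over all genes tested was -0.10. After median-of-ratios scaling the median over all genes was 0.01, that of the members was 0.01, and 5 members were lower and 5 higher, with *Hsp90b1* (0.04), *Sdf2l1* (0.03) and *Creld2* (0.07) above 0. Relative to the median of all genes the members were at -0.02 before and -0.00051 after that scaling. The log2 fold change of *Hspa5* was -0.32 (SE 0.31) with all mice and -0.65 without OP mouse 2, where its unadjusted limma-trend p was 0.0234 and its adjusted p 0.770. Without OP mouse 1, *Ern2* turned from -0.60 to 0.31, *Dnajb9* from 0.11 to -0.12 and *Hyou1* from -0.15 to 0.07.

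**Figure D2:**
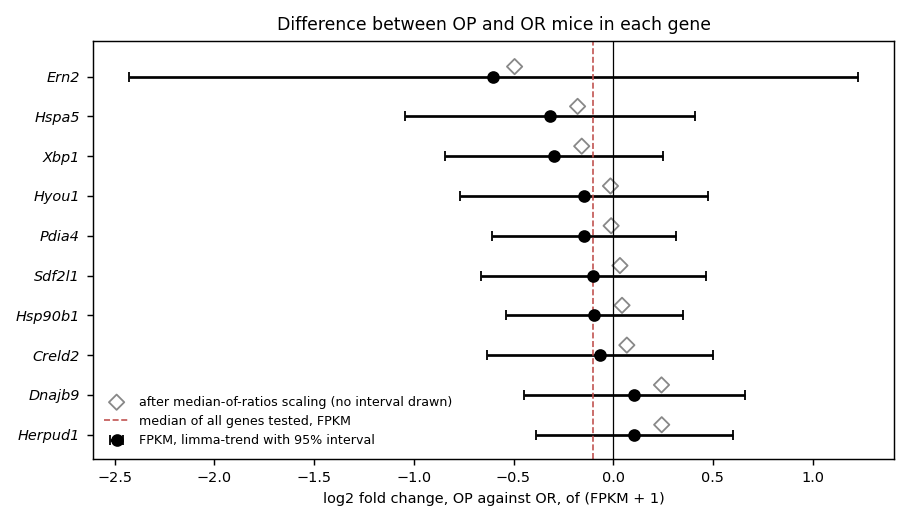
Log2 fold change of FPKM + 1 in OP against OR mice (horizontal axis) for each gene, as the limma-trend value with its 95% interval (black) and after median-of-ratios scaling (open diamonds), with the median of all genes tested as a dashed line at -0.10. All 10 intervals cross 0, and the interval of *Ern2* is the widest.

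The members varied more between mice of the same group than most genes did. The standard deviation within groups on the log2(FPKM + 1) scale had a median of 0.35 over the 10 members and of 0.25 over all genes tested, and all 10 members were above the latter. It was 0.26 for *Hsp90b1*, 0.48 for *Hspa5* and 1.28 for *Ern2*, which exceeded 99.1% of all genes tested. *Hsp90b1* and *Pdia4* exceeded only 52.3% and 56.1% of them. The members were not compared with genes of like expression level. The variation ran across the groups. OP mouse 2 had the highest value in 6 members and OR mouse 3 in *Hspa5*, *Xbp1* and *Ern2*, while the lowest value was in OP mouse 1 for 4 members, in OP mouse 3 for 4, and in OR mouse 1 and OR mouse 2 for 1 each. After median-of-ratios scaling the highest value was in OP mouse 2 for 8 members and in OP mouse 1 and OR mouse 3 for 1 each, and the lowest was in OR mouse 1 for 5, in OP mouse 3 for 4 and in OP mouse 1 for 1. Without *Ern2*, the members deviated from their 6-mouse mean by a median of -0.25, 0.39 and -0.25 (OP) against -0.20, 0.05 and 0.25 (OR) in log2 units. After median-of-ratios scaling it was 0.06, 0.40 and -0.37 (OP) against -0.35, 0.08 and 0.16 (OR). OP mouse 2 and OR mouse 3 were thus above the mean and OP mouse 3 and OR mouse 1 below it on both scales, whereas the place of OP mouse 1 depended on the scale.

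**Figure D3:**
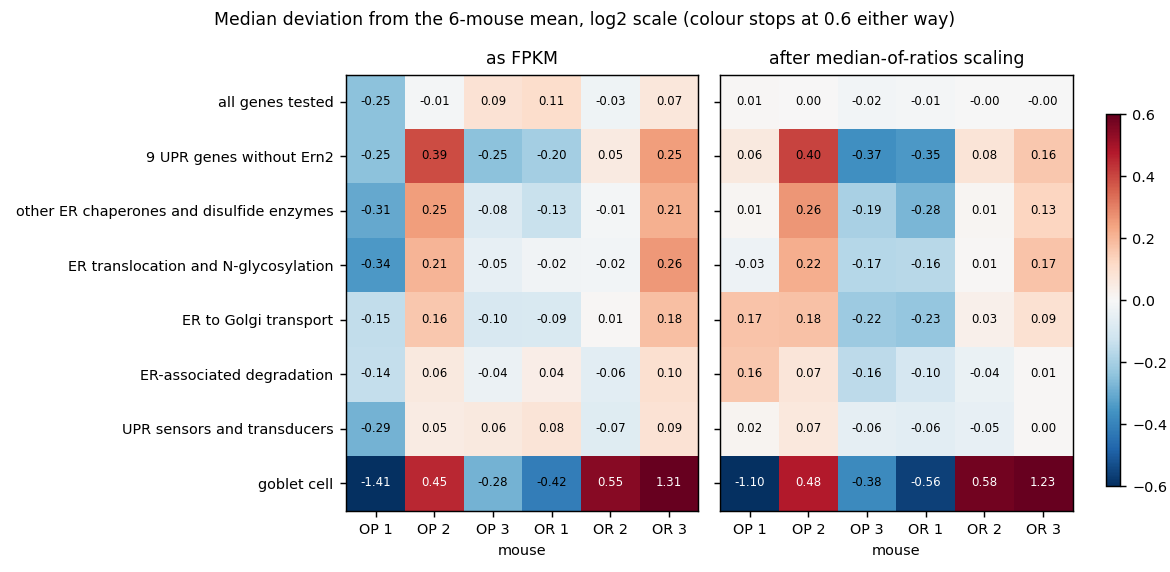
Median log2 deviation from the 6-mouse mean (number and colour in each cell) for gene lists (rows) in each mouse (columns), as FPKM on the left and after median-of-ratios scaling on the right. The 9 members without *Ern2* are high in OP mouse 2 (0.39) and OR mouse 3 (0.25), and goblet cell markers range from -1.41 in OP mouse 1 to 1.31 in OR mouse 3.

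Among the members, *Dnajb9* departed from the others. Its ratio to *Hspa5*, to whose product it binds as a partner, was 0.310, 0.108 and 0.196 (OP) against 0.143, 0.149 and 0.126 (OR), so the ratio was highest in OP mouse 1. Each member was also set against the mean profile of the 10 members, scaled per gene, as a description over 6 mice. The profile was taken from log2(FPKM + 1) only. It was not repeated after median-of-ratios scaling, which moved OP mouse 1. Pearson's r was 0.978 for *Hspa5*, 0.951 for *Creld2*, 0.948 for *Hyou1*, 0.758 for *Ern2* and 0.106 for *Dnajb9*, and the members themselves make up that profile. Outside the members, the 5 genes most like it were *Serp1* (r = 0.990), *Usp6nl* (0.987), *Fam204a* (0.984), *Tmed10* (0.983) and *Gmppb* (0.981). *Serp1* encodes a stress-associated ER membrane protein, *Tmed10* a cargo receptor of early secretory transport and *Gmppb* an enzyme that makes GDP-mannose for glycosylation. *Serp1* had FPKM values of 81.6, 125 and 83.4 (OP) against 83.4, 97.8 and 121 (OR). It too was high in OP mouse 2 and OR mouse 3.

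Several markers of goblet cells shared with *Ern2* a low value in OP mouse 1 and a high one in OR mouse 3, but not all of them were high in OP mouse 2 as *Ern2* was. Of 15 markers, 12 were lowest in OP mouse 1 (54.4% of all genes) and 13 highest in OR mouse 3 (21.9%) as FPKM. After median-of-ratios scaling these were 8 (25.8%) and 10 (16.9%). *Agr2*, a disulfide isomerase family member needed for mucin production, had FPKM values of 41.2, 1344 and 319 (OP) against 261, 542 and 1366 (OR). *Muc2*, the main secreted mucin of the colon, had 17.6, 563 and 188 (OP) against 154, 276 and 933 (OR). Both had their lowest value in OP mouse 1 and their highest values in OP mouse 2 and OR mouse 3, as *Ern2* did. *Spdef* and *Creb3l1*, transcription factors of goblet and secretory cells, were chosen after their values were seen and had 3.41 and 4.24 in OP mouse 1 against 20.8 to 94.9 and 30.3 to 75.1 in the other 5 mice. The ratio of *Ern2* to *Muc2* was 0.119, 0.0493 and 0.0728 (OP) against 0.0719, 0.0421 and 0.0311 (OR). *Ern1*, which encodes the widely expressed paralog IRE1 alpha, ranged only from 7.84 to 13.4 over the 6 mice, and *Ern2* was 0.268 times *Ern1* in OP mouse 1 and between 0.935 and 2.56 times in the other 5.

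The whole list of 15 goblet cell markers had lower values in OP mice in 15 of 15 genes on both scales, with a median of -0.97 on the log2 scale (-0.86 after median-of-ratios scaling), and 2 of 15 had an unadjusted limma-trend p below 0.05, *Zg16* and *Tff3*, named after their values were seen, where 3.53% of all genes were lower at that threshold. After median-of-ratios scaling 1 of 15 passed it, and *Tff3* did not. These 2 genes did not follow *Ern2*, with 282 and 273 FPKM in OP mouse 2 against 2238 and 1155 in OR mouse 3, and *Spink4* and *Retnlb*, likewise named after their values were seen, were lowest in OP mouse 3 (257 and 3.93). Its summed FPKM ranged from 1229 to 5719 in the OP mice and from 1953 to 7643 in the OR mice, and 0 of the 15 were at 0 in all mice. In bulk tissue, fewer goblet cells and less RNA per goblet cell cannot be told apart, and the part of goblet cells in the values of *Ern2* and the other members was not tested.

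**Figure D4:**
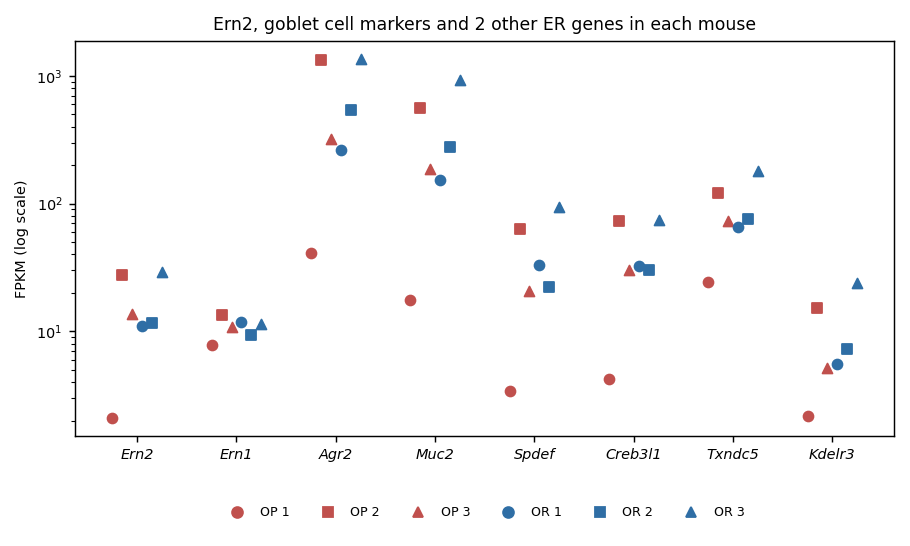
FPKM on a log axis (vertical) of *Ern2*, its paralog *Ern1*, the goblet cell markers *Agr2*, *Muc2*, *Spdef* and *Creb3l1*, and the ER genes *Txndc5* and *Kdelr3* in each of the 6 mice (red, OP; blue, OR). As FPKM, OP mouse 1 is the lowest in each of the 8 genes, as it is in 54.4% of all genes tested, and *Ern1* has the smallest spread, from 7.84 to 13.4. After median-of-ratios scaling, which is not drawn, *Ern1* is lowest in OR mouse 2.

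The rest of the ER program was examined in lists of related genes. Of the 8 sensors and transducers, 8 had lower values in OP mice as FPKM and 4 after median-of-ratios scaling, and none passed an unadjusted threshold of 0.05. Log2 fold changes were -0.04 (SE 0.22) for *Ern1*, -0.05 (0.22) for *Eif2ak3*, which encodes PERK, and -0.01 (0.18) for *Atf6*, with FPKM means in OP and OR mice of 10.7 and 10.8, 8.64 and 9.13, and 9.57 and 9.58. *Atf6b* (-0.14), the ATF6-cleaving proteases *Mbtps1* (-0.15) and *Mbtps2* (-0.12), and *Eif2s1* (-0.23), the translation factor that PERK phosphorylates, had unadjusted limma-trend p-values of 0.244 or more. These messenger levels do not measure the phosphorylation, splicing or cleavage by which the sensors act.

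Of 18 genes of the ATF4 and CHOP arm, 0 had an unadjusted limma-trend p below 0.05, 15 had lower and 3 higher values in OP mice (12 and 5 of 17 tested after median-of-ratios scaling), and their median was -0.21 (-0.12 after that scaling). *Atf4*, the transcription factor of this arm, had FPKM values of 64.0, 87.1 and 90.4 (OP) against 99.7, 90.3 and 159 (OR). As FPKM the groups overlapped by OP mouse 3 at 90.4 and OR mouse 2 at 90.3. After median-of-ratios scaling they separated, with 79.8 to 87.9 in the OP mice and 90.2 to 149 in the OR mice and a log2 fold change of -0.36. The share of all genes that separate on that scale was not computed. As FPKM the log2 fold change of *Atf4* was -0.50 (standard error 0.24, unadjusted p = 0.0757, adjusted p = 0.945, limma-trend). *Ddit3*, which encodes the pro-apoptotic factor CHOP, pointed the other way with 20.9 ± 3.53 in OP mice and 18.6 ± 2.99 in OR mice (SD, n = 3). *Atf3* (-0.80, standard error 0.40), *Atf5* (-0.36, 0.20) and *Ppp1r15b* (-0.22, 0.18), which encodes a phosphatase subunit that acts against the PERK signal, did not pass either.

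The other lists of the ER, 5 with the sensors, held 90 genes, of which 89 were tested. None had an unadjusted limma-trend p below 0.05 (4.03% of all genes) and in none did the groups separate as FPKM (8.44% of all genes). After median-of-ratios scaling the OP mice lay above the OR mice in *Atf6*, *Rtcb* and *Ero1b* and below them in *Derl3*. The share of all genes that separate on that scale was not computed. *Rtcb* and *Ero1b* were named after their values were seen. On the FPKM scale 76 were lower and 13 higher in OP mice, with a median of -0.10, the same as that of all genes to 2 decimals, and after median-of-ratios scaling 36 were lower and 53 higher, with a median of 0.03. OR mouse 3 had the highest FPKM in 48 of the 89 and OP mouse 2 in 21, while these mice had the highest value in 21.9% and 13.2% of all genes tested. The lowest FPKM was in OP mouse 1 for 57 of the 89 (54.4% of all genes), in OP mouse 3 for 15 (6.65%) and in OR mouse 1 for 7 (5.26%). After median-of-ratios scaling the highest value was in OP mouse 2 for 38 (15.5% of all genes), in OP mouse 1 for 28 (30.4%) and in OR mouse 3 for 18 (16.9%). The lowest was then in OP mouse 3 for 35 (15.9%), in OR mouse 1 for 30 (14.2%) and in OP mouse 1 for 13 (25.8%). On both scales OP mouse 2, high for the members, was thus the highest more often in the wider set than over all genes. OP mouse 3 was likewise the lowest more often on both scales. The places of OP mouse 1, OR mouse 1 and OR mouse 3 depended more on the scale.

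Among 21 other ER chaperones and disulfide enzymes, 20 were tested. OP values were lower in 16 and higher in 4 as FPKM, but lower in 10 and higher in 10 after median-of-ratios scaling, with medians of -0.12 and 0.02. *Calr*, the lectin chaperone calreticulin, had group means of 319 ± 59.5 (OP) against 341 ± 55.3 (OR) FPKM (SD, n = 3). *Canx*, its membrane-bound relative calnexin, had 102 ± 7.98 and 115 ± 6.27, *Dnajc3* (p58IPK, a J-domain partner of BiP) 25.5 ± 3.87 and 26.3 ± 2.301, and *Manf*, a secreted stress-inducible factor, 156 ± 56.3 and 183 ± 43.9. The difference in *Canx* was larger than either SD, but its groups overlapped and its adjusted p in limma-trend was 0.945. In *Calr*, *Dnajc3* and *Manf* the difference was smaller than either SD. *Creld1* (-0.34) and *Ero1a* (0.15), an oxidase that recharges disulfide isomerases, did not pass the test. *Txndc5*, a disulfide isomerase family member, ranged from 24.5 in OP mouse 1 to 181 in OR mouse 3.

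In ER-associated degradation, 15 of 17 genes had lower values in OP mice as FPKM but 5 of 17 after median-of-ratios scaling, with medians of -0.09 and 0.04. *Derl3*, a channel component of that pathway, was at a low level, with FPKM values of 1.13, 1.14 and 1.86 (OP) against 2.14, 1.75 and 2.61 (OR). Its log2 fold change was -0.42. *Ube2g2* (-0.28) and *Ube2j1* (-0.17), ubiquitin-conjugating enzymes, and *Edem3* (-0.23), a mannosidase, followed. In translocation and N-glycosylation 22 of 24 had lower values as FPKM and 11 of 24 after that scaling, with medians of -0.13 and 0.01, and the oligosaccharyltransferase genes *Stt3b* (-0.27), *Stt3a* (-0.21) and *Rpn2* (-0.17) and the translocon gene *Ssr3* (-0.19) had the smallest p-values. In ER to Golgi transport 15 of 20 had lower values as FPKM and 6 of 20 after that scaling, with medians of -0.07 and 0.07. *Lman1* (-0.54), a cargo receptor, *Sar1a* (-0.27), *Sec24d* (-0.36), which are coat genes, and *Kdelr3* (-0.70), a receptor that returns ER chaperones, were named for the smallest p-values. None of these genes had an unadjusted p below 0.05, and *Kdelr3* ranged from 2.17 in OP mouse 1 to 23.8 in OR mouse 3.

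**Figure D5:**
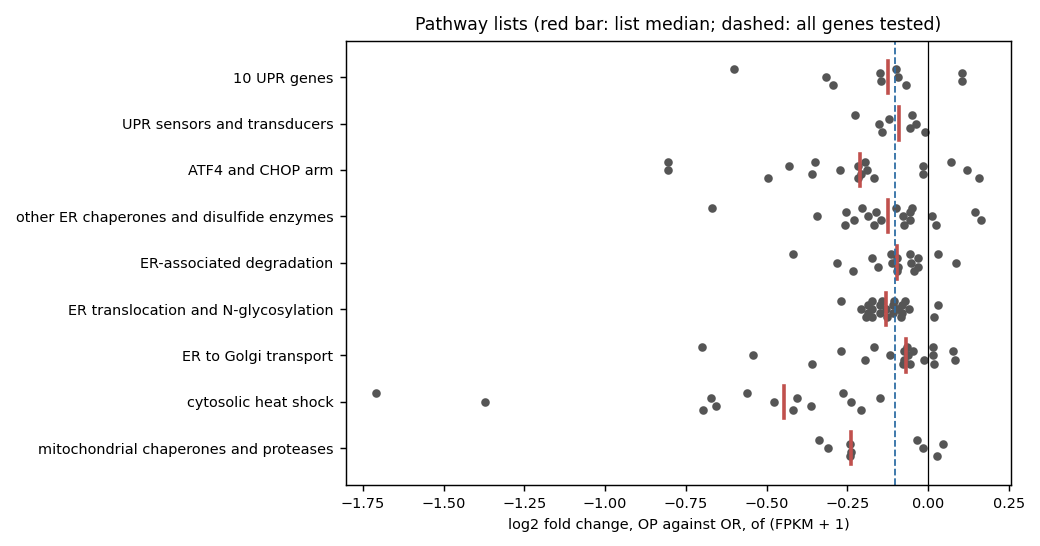
Log2 fold change of FPKM + 1 in OP against OR mice (horizontal axis) of each tested gene (points) in the pathway lists (rows), with the list median (red bar) and the median of all genes tested (dashed line, -0.10). On this scale the medians of the ER lists lie between -0.13 and -0.07, that of the ATF4 and CHOP arm at -0.21, and that of cytosolic heat shock genes at -0.45.

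The genes with an ERSE or ERSE-II in the promoter window were examined as a group that was chosen by sequence alone. They were 49 in all, 29 of them tested. Besides the 4 members, 8 belonged to the other ER lists, *Calr*, *Canx*, *Derl3*, *Dnajb11*, *Dnajc3*, *Ero1b*, *Pdia6* and *Syvn1*. Their median log2 fold change on the FPKM scale was -0.05, where that of all genes was -0.10. Of the 29, 0 had an unadjusted limma-trend p below 0.05, where 4.03% of all genes did. In 1 of the 29, *Rcl1*, named after its value was seen, the groups separated, as they did in 8.44% of all genes.

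Chaperones outside the ER were compared for contrast. Of 14 cytosolic heat shock genes, 14 had lower values in OP mice on both scales, with medians of -0.45 as FPKM and -0.31 after median-of-ratios scaling. Only *Dnajb4* passed an unadjusted limma-trend threshold of 0.05 (adjusted p 0.945), where 3.53% of all genes were lower. *Hspa1a*, an inducible HSP70, reached 234 in OR mouse 3 against 6.00 to 40.6 in the other 5 mice, and *Dnajb1* reached 81.9 there against 19.3 to 40.5. *Stip1*, a cochaperone of HSP70 and HSP90, had a log2 fold change of -0.36. As FPKM the list was high in OR mouse 3 (median deviation 0.79) and OP mouse 2 (0.22), as the ER members were. Like them, it was low in OP mouse 1 (-0.38) and OP mouse 3 (-0.49). It was high in OR mouse 1 (0.32), where the ER members were low, and low in OR mouse 2 (-0.44), where they were at 0.05. The cytosolic and ER chaperones thus shared their order over the mice only in part. Of 9 mitochondrial chaperones and proteases 7 had lower values (5 after median-of-ratios scaling), with a median of -0.24 (-0.10), and in *Lonp1* (-0.34) and *Dnaja3* (-0.24) the OP mice lay below the OR mice without overlap, as in 6.81% of all genes, while *Hspd1* (-0.31) and *Hspa9* (-0.24) overlapped. After median-of-ratios scaling *Lonp1* stayed without overlap (-0.20) and *Dnaja3* overlapped (-0.10). None of the 9 had an unadjusted p below 0.05. Whether the difference between these lists and the ER members exceeds error was not tested.

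Other cell types were checked by their markers, since plasma cells and stromal cells also make much ER protein. All 10 plasma cell markers passed the filter, with a summed FPKM of 150 to 272 in the OP mice and 250 to 308 in the OR mice. Much of this sum came from *Sdc1*, with 98.3 to 128 per mouse after median-of-ratios scaling. *Tnfrsf17*, also named after its values were seen, was at only 0.121 to 1.51 on that scale. The sum therefore does not give the amount of plasma cells. Values were lower in OP mice in 6 and higher in 4 as FPKM (4 and 6 after median-of-ratios scaling), with medians of -0.05 and 0.02. *Cd79a* (0.96), *Prdm1* (0.56) and *Eaf2* (0.28), named like *Sdc1* after their values were seen, were on the higher side. After that scaling *Cd79a* had 36.6 in OP mouse 3 against 3.08 to 7.07 in the other mice. *Prdm1* then had 12.1 in OP mouse 1 against 0.697 to 4.18 in the other mice. *Jchain*, the joining chain of secreted IgA, had 48.8, 41.6 and 91.1 (OP) against 120, 130 and 154 (OR). Its OP mice lay below the OR mice without overlap, as in 6.81% of all genes. Its adjusted p in limma-trend was 0.766. *Mzb1*, a plasma cell partner of GRP94, had 3.31, 2.50 and 11.9 (OP) against 9.10, 9.05 and 6.66 (OR), and overlapped. At an unadjusted p below 0.05, 10 of 12 fibroblast and matrix markers, 10 of 10 blood endothelium markers and 8 of 10 macrophage markers were lower in OP mice (7, 9 and 7 after median-of-ratios scaling), as were 1 of 10 adipocyte (0 after that scaling) and 0 of 10 smooth muscle markers. Of all genes tested, 3.53% were lower at that threshold as FPKM, and 421 of 13482 were after median-of-ratios scaling. The summed FPKM of the fibroblast list was 156 to 239 in the OP mice and 337 to 503.7 in the OR mice, with no overlap, whereas the members overlapped in all 10 genes. Of the 15 colon epithelium markers, 11 had higher and 4 lower values in OP mice as FPKM (13 and 2 after median-of-ratios scaling). Their medians were 0.11 and 0.25, and 0 of 15 had an unadjusted p below 0.05. Their summed FPKM was between 16995 and 30646 in the 6 mice. The defining markers of colon epithelium were thus present, as labelled. Of 8 pancreatic acinar genes, 6 were below an FPKM of 1 in all mice. The part of these cells in the levels of the members was not tested.

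The labels do not give the time of day at which the mice were killed, and clock genes were read for this reason. Of 15 clock genes listed, 14 were tested and 0 had an unadjusted limma-trend p below 0.05, with a median log2 fold change of -0.11. *Per1* had FPKM values of 7.11, 10.6 and 13.8 (OP) against 24.6, 10.9 and 15.7 (OR), and *Nr1d1* had its highest value, 31.2, in OR mouse 1 as well. *Cry1* (0.63) and *Arntl* (0.33) had their lowest values, 10.04 and 7.74, in that same mouse. OR mouse 1 was also among the lowest in the ER members, and the part of the clock in this was not tested.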

How the data were processed

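Colon RNA of 3 OP and 3 OR mice was analysed. The authors enriched mRNA, made strand-specific libraries, sequenced them on the DNBSEQ platform, filtered reads with SOAPnuke, aligned them to a mouse gene set with Bowtie2 and quantified genes with RSEM. The labels and the methods name different versions and gene sets, and the submitters' processing notes also name HISAT2 2.0.4. The deposited values are FPKM, rounded to 2 decimals, for 17778 genes. Read counts and depth are unknown, so DESeq2, the tool of the study, was not run.

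Groups and columns were taken from the labels. The filter required 0.5 FPKM or more in 3 or more mice. OP minus OR differences of log2(FPKM + 1) were fitted with limma-trend in limma 3.58.1 under R 4.3.3, with Benjamini-Hochberg adjustment over all 13520 genes and no covariates. Exact permutation tests used SciPy 1.17.1. The fit was run on simulated data with planted changes larger than any fitted for the members, so that run says nothing on changes of their size. The members and lists were chosen with earlier results of these data known, so list counts and medians are descriptions without tests. Genes named besides the members were up to 4 per pathway list with the smallest p, *Ern1*, *Eif2ak3*, *Atf6*, *Atf4*, *Ddit3*, *Dnajc3*, *Calr*, *Manf*, *Agr2*, *Muc2*, *Jchain*, *Mzb1* and the 5 genes most like the members' mean profile. Alternatives were other scalings, pseudocount, filters, limma settings, the replicate block and each mouse left out. Promoters come from RefSeq on GRCm38.p6, another build than the GRCm39 named for the reads, and were matched by symbol. The expression table has no coordinates.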

Additional observations from a re-analysis of the deposited data

How the results depend on the processing

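No alternative brought a member past the thresholds. Of 140 member values under 14 alternatives each, 0 had an adjusted p below 0.2 (lowest 0.648) and 1 had an unadjusted p below 0.05, that of *Hspa5* without OP replicate 2. In 18 of the 140 the sign of the log2 fold change differed from that in all 6 mice, in members whose values were not past the threshold either way. The median of the members ranged, with each mouse left out, from -0.32 without OP replicate 2 to -0.01 without OP replicate 1. It was 0.01 with median-of-ratios scaling and 0.03 with sample weights, where 6 of the 10 were higher in OP mice. With each mouse left out, between 0 and 1 members were lower at an unadjusted p below 0.05.

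Over all genes, 3 were called lower and 0 higher in OP mice. The count of lower genes was 0 with median-of-ratios scaling, 0 with TPM scaling, 0 with a pseudocount of 0.1, 0 without the filter, 0 with an FPKM of at least 1 in all 6 mice, 0 at an adjusted p below 0.05, 5 with sample weights, and from 0 to 1 with each mouse left out. The cause was not tested. Counts at an unadjusted p below 0.05 were 68 higher and 477 lower, and with median-of-ratios scaling 154 and 421. Under a replicate block in the fit, 0 genes were called lower and 0 of the 10 members had an unadjusted p below 0.05. Mice that share a number are not the same animal, and their deviations from the group means correlated at -0.144, -0.157 and 0.0709. Mice with unlike numbers correlated at -0.464 to 0.537. With 3 mice per group these values cannot tell whether a shared number marks shared handling. Depth is unknown and its limits cannot be given.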
